A study of Homo sapiens with 9 samples.

Results

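The mitochondrial chaperones and proteases described here are 10 nuclear genes, HSPD1, HSPE1, HSPA9, DNAJA3, TRAP1, LONP1, CLPP, CLPX, YME1L1 and AFG3L2. They were chosen by gene name for their known role in protein quality control in mitochondria, and each matched 1 of the 60623 identifiers in the expression files. RNA-seq was performed on U937, a human monocytic cell line, after 0, 12 and 48 h in 5 μg/ml doxycycline. The study asked how the leukemia fusion proteins AML1-ETO and ETO2-GLIS2 differ as transcription factors, and the empty vector line served to recognise genes that respond to doxycycline itself. Gene positions are those of RefSeq on GRCh38.p14. Each of the 3 lines gave 1 library per time, so there are 9 libraries and no replicate check, and no p-value was computed.

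The empty vector line (labelled WT) carries the doxycycline-inducible retroviral vector without a fusion cDNA. The AML1-ETO line carries the same vector with N-terminally HA-tagged AML1-ETO, and the ETO2-GLIS2 line carries it with N-terminally HA-tagged ETO2-GLIS2. The vector confers puromycin resistance and the stable lines were made by selecting single clones, so clone and construct cannot be told apart when lines are compared. All 3 lines received doxycycline for 12 and 48 h, and the 0 h libraries are from cells before induction.

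Mitochondria import nearly all of their proteins unfolded. In the matrix, mortalin (HSPA9) with its J-domain partner DNAJA3 receives the incoming chains, the HSP60 and HSP10 chamber (HSPD1 and HSPE1) folds them, and TRAP1 is the HSP90 of the organelle. LONP1 and the ClpXP pair (CLPP and CLPX) degrade damaged matrix proteins, while YME1L1 and AFG3L2 are proteases of the inner membrane. When unfolded proteins accumulate, cells can raise such genes together, a program known as the mitochondrial unfolded protein response, in which the factors ATF5, ATF4 and DDIT3 (CHOP) take part and which overlaps with the integrated stress response.

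The libraries held between 15136408 and 18443651 reads on genes, recovered from the deposited FPKM, that is, reads per gene relative to exon length and library size. RUNX1T1, which encodes the ETO part of AML1-ETO, was at 0.51, 22.2 and 28.7 FPKM at 0, 12 and 48 h in AML1-ETO cells and at 0.02 FPKM or less in the other lines. GLIS2 was at 2.39, 6.79 and 8.85 FPKM in ETO2-GLIS2 cells, and at 4.76 and 5.60 FPKM in empty vector and AML1-ETO cells at 0 h, so the uninduced ETO2-GLIS2 library was the lowest of the 3. Of the monocytic and myeloid markers, LYZ, ELANE, PRTN3, SPI1, CEBPA, CD33 and PTPRC were expressed, and CD14 and CD68 were at or near 0. The summed level of the 13 markers on this list ranged from 185 FPKM in AML1-ETO cells at 48 h to 2670 FPKM, and its part in the values below was not tested. In bulk RNA, fewer cells of a type and less RNA per cell cannot be told apart. CD3D, CD3E and CD3G of T cells, MS4A1 and CD79B of B cells and HBB of red cells were at 0 in all 9 libraries.

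HSPD1 and HSPE1 lie head to head on chromosome 2, with transcript starts 105 bases apart, so the pair is shown with the region it shares. The RefSeq promoter windows on GRCh38.p14 run from 250 bases before to 50 bases after a transcript start. Such windows were found for 8 of the 10 genes, and CLPP and YME1L1 have none in the table used. The first window below belongs to the upstream start of HSPD1 (chr2:197500225-197500524, minus strand), and capitals mark the 204 bases that it shares with the HSPE1 window on the other strand. The second belongs to a downstream start of HSPD1 (chr2:197499791-197500090, minus strand), and capitals mark a heat shock element.
HSPD1, upstream start: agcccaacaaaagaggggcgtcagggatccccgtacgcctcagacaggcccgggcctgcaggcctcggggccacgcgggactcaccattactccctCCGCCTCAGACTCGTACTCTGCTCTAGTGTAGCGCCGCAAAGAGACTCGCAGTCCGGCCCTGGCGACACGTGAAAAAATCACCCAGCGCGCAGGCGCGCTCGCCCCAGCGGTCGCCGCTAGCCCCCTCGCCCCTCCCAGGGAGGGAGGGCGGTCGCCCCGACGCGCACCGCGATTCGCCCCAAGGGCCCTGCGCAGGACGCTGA
HSPD1, downstream start: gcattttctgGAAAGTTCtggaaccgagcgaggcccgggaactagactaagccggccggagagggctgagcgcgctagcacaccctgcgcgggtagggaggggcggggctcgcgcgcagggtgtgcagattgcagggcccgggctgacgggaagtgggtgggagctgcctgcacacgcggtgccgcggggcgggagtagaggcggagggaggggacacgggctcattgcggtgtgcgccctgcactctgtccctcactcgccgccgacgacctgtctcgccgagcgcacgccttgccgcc
The next windows are from a protease that was higher and a chaperone that was lower at 48 h in all 3 lines, LONP1 (chr19:5720403-5720702, minus strand) and TRAP1 (chr16:3717475-3717774, minus strand), with HSPA9 (chr5:138575352-138575651, minus strand) as the gene whose levels were most like those of LONP1. Capitals mark the core of the NRF1 site, a factor of nuclear genes for mitochondria, and the TRAP1 and HSPA9 windows hold none of the letters searched.
LONP1, upstream start: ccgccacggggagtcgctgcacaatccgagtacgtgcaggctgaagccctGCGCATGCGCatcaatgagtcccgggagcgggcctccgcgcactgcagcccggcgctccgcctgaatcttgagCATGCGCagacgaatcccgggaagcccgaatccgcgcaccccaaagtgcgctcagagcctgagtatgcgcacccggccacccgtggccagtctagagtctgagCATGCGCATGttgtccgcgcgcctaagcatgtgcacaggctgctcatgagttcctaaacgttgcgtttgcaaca
TRAP1: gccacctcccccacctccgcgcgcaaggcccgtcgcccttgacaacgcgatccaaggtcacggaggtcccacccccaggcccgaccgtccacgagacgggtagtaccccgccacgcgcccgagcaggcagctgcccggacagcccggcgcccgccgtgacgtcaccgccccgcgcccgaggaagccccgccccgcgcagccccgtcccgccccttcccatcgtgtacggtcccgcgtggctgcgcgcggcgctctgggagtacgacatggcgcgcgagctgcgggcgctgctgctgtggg
HSPA9: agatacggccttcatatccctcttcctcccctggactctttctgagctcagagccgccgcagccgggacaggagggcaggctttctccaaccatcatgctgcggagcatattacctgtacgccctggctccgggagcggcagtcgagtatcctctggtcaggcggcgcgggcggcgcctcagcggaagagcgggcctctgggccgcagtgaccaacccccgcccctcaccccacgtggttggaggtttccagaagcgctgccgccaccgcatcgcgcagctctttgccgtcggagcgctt
The motifs were searched on both strands as exact letters. TTGCATCA, a form of the composite element bound by ATF4 and C/EBP factors, was in none of the 10 windows of the genes and in 0.866% of all 35116 windows. GAANNTTC, a core of the heat shock element, was in the downstream window of HSPD1 only, against 6.77% of all windows. GCGCATG, the core of the NRF1 site, had 5 matches in the LONP1 window shown, some of them overlapping as the letters and their reverse, none in the window of the other LONP1 start (chr19:5720097-5720396), and 1 match in the DNAJA3 window, against 4.43% of all windows. A match describes letters and no binding was measured here.

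The 10 genes did not move as a group. At 48 h, LONP1 was about 1.5-fold higher and TRAP1 about 1.8-fold to 2.2-fold lower than at 0 h in each line. HSPD1, by far the most abundant member, was lower at 48 h in every line, past 1.5-fold in both fusion lines and by less in empty vector cells. Changes are log2 ratios of FPKM plus 0.01, and a gene was called when it passed 1.5-fold with a mean of at least 1 FPKM over the 2 libraries. In empty vector cells at 48 h, 2 of the 10 genes were called higher and 1 lower, beside 20.4% and 7.4% of the 11624 genes tested. In AML1-ETO cells at 48 h, 1 was called higher and 2 lower, beside 31.7% and 18.5% of 12030 genes. In ETO2-GLIS2 cells at 48 h, 1 was called higher and 2 lower, beside 22.4% and 6.24% of 11696 genes. Members were called higher no more often than all genes of at least 1 FPKM in any line. The 2 genes lower in ETO2-GLIS2 cells were HSPD1 and TRAP1. The share of all genes depends on the filter, and most members lie well above it. In empty vector cells at 48 h, 27.8% of genes were called in either direction, against 20.2% with a mean of at least 5 FPKM.

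At 12 h the calls were fewer. None of the 9 members tested was called in empty vector cells, beside 14.4% of 11694 genes higher and 3.77% lower, and none of 10 was called in ETO2-GLIS2 cells, beside 8.92% of 11311 genes higher and 3.39% lower. In AML1-ETO cells 1 member, HSPE1, was called higher and none lower, beside 18.0% and 6.17% of 11775 genes. At 48 h the 10 genes had a median change of 0.19 with the empty vector, 0.24 with AML1-ETO and -0.18 with ETO2-GLIS2. The median over all genes tested was 0.16, 0.22 and 0.16, so a change near 0.2 is that of the middle gene in this scale. Relative to it, 5 members lay above and 5 below in both the empty vector and the AML1-ETO line, and 2 above and 8 below in ETO2-GLIS2 cells.

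**Figure D1:**
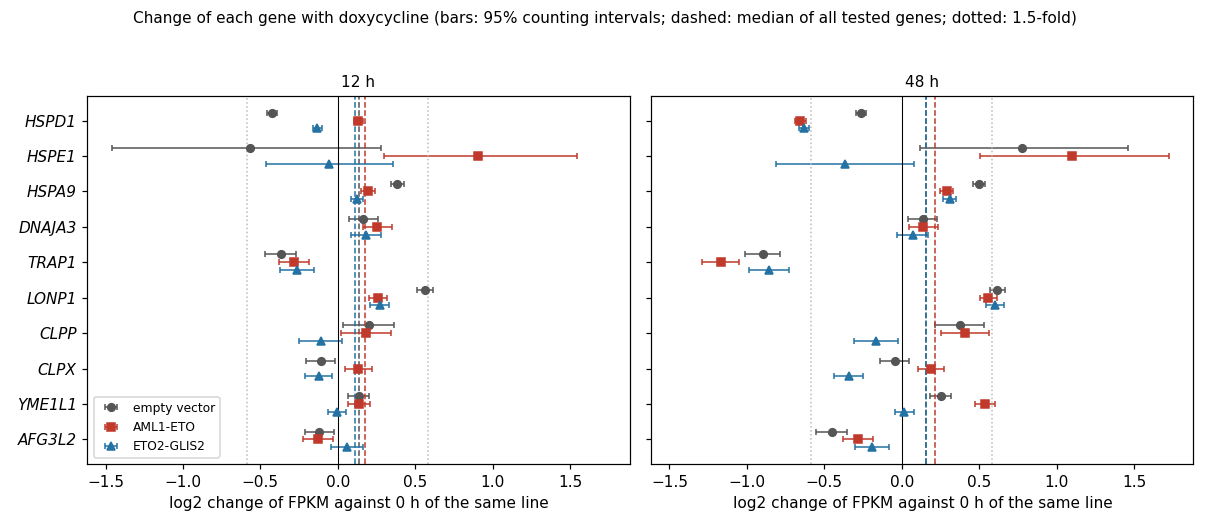
Log2 change of FPKM of the 10 genes at 12 h (left) and 48 h (right) against 0 h of the same line, with 1 library per point and bars for 95% counting intervals. Dashed lines give the median of all genes tested in each line and dotted lines 1.5-fold; at 48 h all 3 TRAP1 points lie left of the dotted line, and the LONP1 points lie between 0.56 and 0.62.

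HSPD1 (ENSG00000144381, chr2:197486584-197500274, minus strand) encodes HSP60, the barrel of the folding chamber. It had 287, 214 and 239 FPKM at 0, 12 and 48 h in empty vector cells, 274, 299.9 and 174 FPKM in AML1-ETO cells, and 277, 252 and 179 FPKM in ETO2-GLIS2 cells. The lines were alike at 0 h and apart at 12 h, when the empty vector library was the lowest and the AML1-ETO library the highest. By 48 h the order was reversed, and both fusion libraries were below every empty vector library. Log2 changes at 48 h were -0.66 (95% counting interval -0.69 to -0.62) with AML1-ETO and -0.63 (-0.66 to -0.60) with ETO2-GLIS2, both past 1.5-fold, and -0.26 (-0.30 to -0.23) in empty vector cells. Relative to the change of the empty vector line these were -0.39 and -0.36, less than 1.5-fold. At 12 h the value with AML1-ETO was 0.13, which became -0.04 less the median of all genes. HSPD1 gave between 38.1% and 55.0% of the summed FPKM of the 10 genes, and this share was lowest in AML1-ETO cells at 48 h. The intervals are exact for the ratio of 2 read counts and cover counting error only, since the libraries hold no molecular identifiers that would separate molecules from their copies, and cultures were not repeated.

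HSPE1 (ENSG00000115541, chr2:197500379-197503449, plus strand) encodes HSP10, the lid of that chamber. It was listed at 1.08, 0.725 and 1.85 FPKM in empty vector cells, 1.19, 2.24 and 2.56 FPKM in AML1-ETO cells, and 3.15, 3.04 and 2.45 FPKM in ETO2-GLIS2 cells. These values rest on 20 to 106 reads and are between 67.9 and 295 times below HSPD1 per exon length. HSPE1 was called higher at 48 h in empty vector cells (0.77, 0.12 to 1.46) and in AML1-ETO cells (1.10, 0.51 to 1.72), while the value in ETO2-GLIS2 cells was -0.36 (-0.82 to 0.08). The level is uncertain because 26 identifiers are named as HSPE1 pseudogenes, with 2.75 to 6.08 FPKM in sum, and the readthrough gene HSPE1-MOB4 covers 10.53% of the HSPE1 exon bases on the same strand and is listed at 0 in all 9 libraries. By default HTSeq sets aside reads that fit several places or several genes, and how many HSPE1 reads this took was not tested. For HSPD1 there are 17 such copies, with 2.47 to 6.14 FPKM in sum, at most a few percent of HSPD1 itself.

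HSPA9 (ENSG00000113013, chr5:138553756-138575401, minus strand) encodes mortalin, the motor of import and the main HSP70 of the matrix. It had 70.0, 91.4 and 98.9 FPKM in empty vector cells, 62.2, 71.2 and 76.1 FPKM in AML1-ETO cells, and 64.0, 69.8 and 79.3 FPKM in ETO2-GLIS2 cells. Every later library was above the 0 h library of its line, by 0.50, 0.29 and 0.31 on the log2 scale at 48 h, and none passed 1.5-fold. Less the median of all genes these values were 0.34, 0.07 and 0.15, the largest of them in empty vector cells. DNAJA3 (ENSG00000103423, chr16:4425868-4456775, plus strand) encodes the J-domain protein that stimulates mortalin. It kept between 13.5 and 18.3 FPKM, and its changes at 48 h (0.14, 0.14 and 0.07) turned to -0.02, -0.08 and -0.09 once the median of all genes was subtracted.

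TRAP1 (ENSG00000126602, chr16:3658037-3717524, minus strand) encodes the HSP90 of the matrix. It had 23.2, 17.9 and 12.4 FPKM in empty vector cells, 23.1, 19.0 and 10.3 FPKM in AML1-ETO cells, and 15.8, 13.2 and 8.70 FPKM in ETO2-GLIS2 cells. In each line the 12 h library lay between the other two, and the 48 h libraries of all lines were below every earlier library. TRAP1 fell in each line by 48 h, with log2 changes of -0.90 (-1.01 to -0.79) with the empty vector, -1.17 (-1.29 to -1.05) with AML1-ETO and -0.86 (-0.99 to -0.73) with ETO2-GLIS2. Less the median of all genes the values were -1.05, -1.39 and -1.01. The difference from the empty vector line was -0.27 with AML1-ETO and 0.04 with ETO2-GLIS2, so a fall was also present in the cells without a fusion protein. TRAP1 exons are covered to 41.91% by exons on the other strand, largely those of DNASE1, which was at 1.31 to 4.66 FPKM and highest in AML1-ETO cells at 48 h. The library kit does not mark strand, and the part of these shared bases in the TRAP1 values was not tested.

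**Figure D2:**
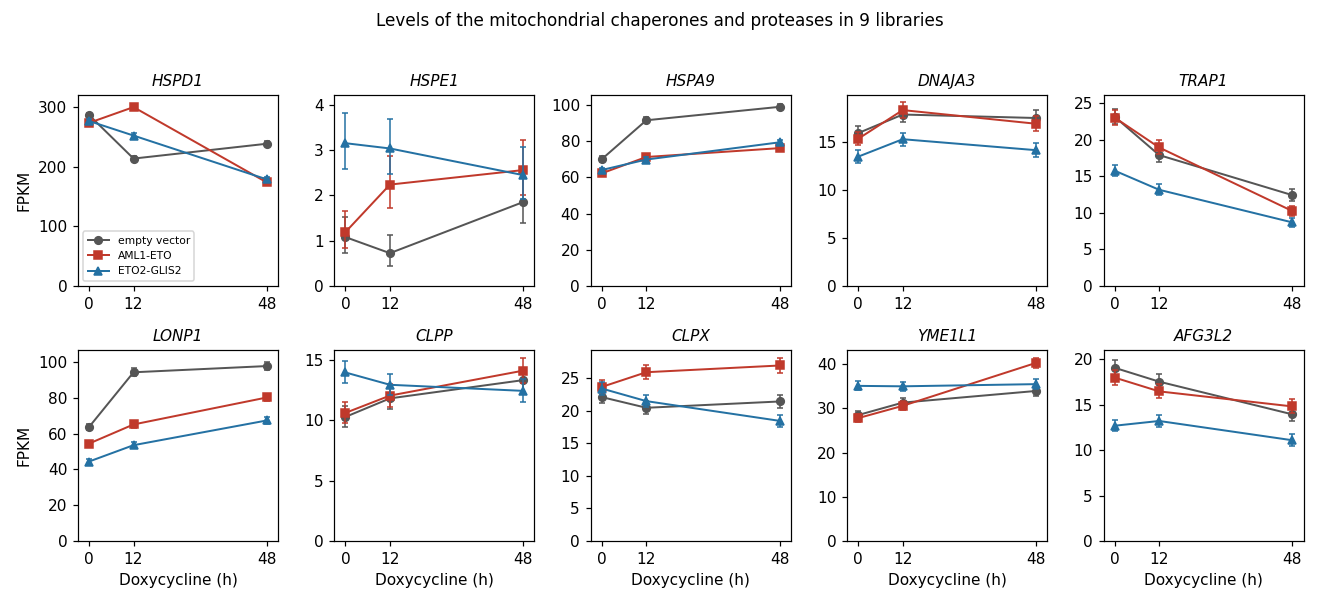
FPKM of the 10 genes against hours of doxycycline on axes that start at 0, with 1 library per point and bars for 95% counting intervals. HSPD1 runs between 174 and 299.9 FPKM and HSPE1 stays at or below 3.15 FPKM, while TRAP1 descends and LONP1 ascends in each line.

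LONP1 (ENSG00000196365, chr19:5691834-5720452, minus strand) encodes the ATP-dependent protease that removes oxidised and misfolded matrix proteins. It had 63.8, 94.4 and 97.9 FPKM in empty vector cells, 54.5, 65.2 and 80.3 FPKM in AML1-ETO cells, and 44.4, 53.6 and 67.4 FPKM in ETO2-GLIS2 cells. At each time the empty vector library was the highest and the ETO2-GLIS2 library the lowest. LONP1 rose by 0.62 (0.57 to 0.67) in empty vector cells and by 0.60 (0.54 to 0.66) in ETO2-GLIS2 cells at 48 h. In AML1-ETO cells the value was 0.56 (0.50 to 0.61), or 1.47-fold, just under the threshold. Less the median of all genes the values were 0.46, 0.34 and 0.44, which are all below 1.5-fold. The time course differed, since the empty vector line had reached 0.57 by 12 h, against 0.26 and 0.27 in the fusion lines. The ratio of LONP1 to TRAP1 was 2.75, 5.27 and 7.87 in empty vector cells, 2.36, 3.44 and 7.83 in AML1-ETO cells, and 2.81, 4.07 and 7.74 in ETO2-GLIS2 cells. A ratio within a library does not depend on its scaling, and this one came to nearly the same value in all 3 lines at 48 h.

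**Figure D3:**
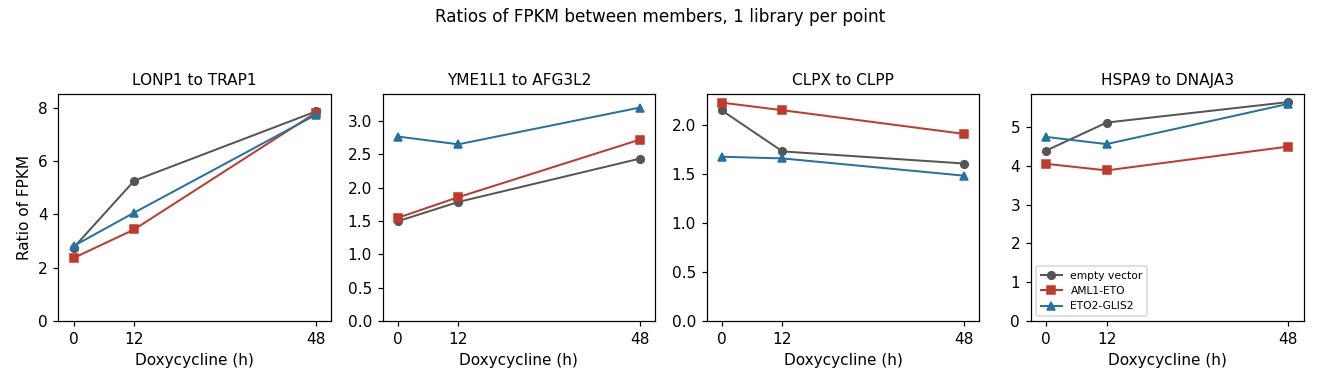
Ratios of FPKM between 2 members of the same library against hours of doxycycline, on axes that start at 0. The LONP1 to TRAP1 ratio runs from 2.36 to 2.81 at 0 h up to 7.74 to 7.87 at 48 h, and the YME1L1 to AFG3L2 ratio is higher in ETO2-GLIS2 cells throughout.

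CLPP (ENSG00000125656, chr19:6361531-6370242) encodes the proteolytic chamber and CLPX (ENSG00000166855, chr15:65148219-65185342, minus strand) the unfoldase that feeds it. CLPP had 10.3, 11.8 and 13.3 FPKM in empty vector cells, 10.6, 12.1 and 14.1 FPKM in AML1-ETO cells, and 13.97, 13.0 and 12.4 FPKM in ETO2-GLIS2 cells. The ETO2-GLIS2 library was the highest at 0 h and the lowest at 48 h, with a log2 value of -0.17 (-0.31 to -0.02) beside 0.37 (0.22 to 0.53) and 0.41 (0.26 to 0.57) in empty vector and AML1-ETO cells. None of these passed 1.5-fold. CLPX had 22.1, 20.5 and 21.4 FPKM in empty vector cells, 23.7, 25.9 and 27.0 FPKM in AML1-ETO cells, and 23.4, 21.5 and 18.4 FPKM in ETO2-GLIS2 cells. Its values at 48 h were -0.04, 0.19 and -0.34, and the value with AML1-ETO became -0.03 less the median of all genes. There was more CLPX than CLPP per exon length in every library, and the ratio was lower at 48 h than at 0 h in each line, from 2.15 to 1.61, from 2.23 to 1.91 and from 1.68 to 1.48.

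YME1L1 (ENSG00000136758, chr10:27110111-27154384) encodes the inner membrane protease that faces the intermembrane space, and AFG3L2 (ENSG00000141385, chr18:12328944-12377227, minus strand) a subunit of the one that faces the matrix. YME1L1 had 28.5, 31.3 and 34.0 FPKM in empty vector cells, 27.8, 30.6 and 40.3 FPKM in AML1-ETO cells, and 35.1, 35.0 and 35.5 FPKM in ETO2-GLIS2 cells. The AML1-ETO library at 48 h was the highest of the 9, at 0.54 (0.47 to 0.60) above its 0 h library and short of 1.5-fold, while the ETO2-GLIS2 line stayed within 0.02. AFG3L2 had 19.1, 17.6 and 13.9 FPKM in empty vector cells, 18.0, 16.5 and 14.8 FPKM in AML1-ETO cells, and 12.7, 13.2 and 11.1 FPKM in ETO2-GLIS2 cells. Its values at 48 h were -0.45, -0.28 and -0.19, none past 1.5-fold. The value in empty vector cells became -0.60 after median-ratio scaling and -0.61 less the median of all genes, both past 1.5-fold. The ratio of YME1L1 to AFG3L2 was 1.49 at 0 h and 2.43 at 48 h in empty vector cells, 1.55 and 2.72 in AML1-ETO cells, and 2.77 and 3.20 in ETO2-GLIS2 cells. Exons on the other strand cover 11.73% of the AFG3L2 exon bases (TUBB6, 24.9 to 48.9 FPKM) and 6.039% of those of YME1L1 (including MASTL), and their part was not tested.

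Between lines at 0 h, before induction, the AML1-ETO library lay within 0.23 of the empty vector library on the log2 scale for each of the 10 genes. The ETO2-GLIS2 library differed more. LONP1 was -0.52 (-0.58 to -0.46), TRAP1 -0.55 (-0.65 to -0.46) and AFG3L2 -0.59 (-0.68 to -0.49) relative to the empty vector line, and CLPP was 0.44 (0.29 to 0.59) and YME1L1 0.30 (0.24 to 0.36). HSPE1 was at 1.54 (0.96 to 2.17), on few reads, and DNAJA3 and HSPA9 were at -0.24 and -0.13. HSPD1 and CLPX were within 0.09 of it. The clone and the fusion construct cannot be told apart in this comparison. At 12 h, relative to the empty vector, LONP1 was at -0.53 with AML1-ETO and -0.82 with ETO2-GLIS2, HSPA9 at -0.36 and -0.39, and HSPD1 at 0.49 and 0.24. HSPE1, on few reads, was at 1.61 and 2.05. At 48 h HSPD1 was at -0.46 and -0.42, LONP1 at -0.29 and -0.54, HSPA9 at -0.38 and -0.32, and TRAP1 at -0.28 and -0.51. CLPX and YME1L1 were above the empty vector library with AML1-ETO, at 0.33 (0.24 to 0.42) and 0.25 (0.19 to 0.31), and at -0.22 and 0.06 with ETO2-GLIS2. These comparisons share the empty vector libraries.

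In level order, HSPD1 was the first and HSPE1 the last in all 9 libraries, and YME1L1 the fourth. HSPA9 and LONP1 followed HSPD1, with LONP1 above HSPA9 in empty vector cells at 12 h and in AML1-ETO cells at 48 h. Their counting intervals overlapped in empty vector cells at 12 and 48 h. TRAP1 and CLPX could not be told apart in empty vector and AML1-ETO cells at 0 h, whereas at 48 h TRAP1 was in the ninth place, below AFG3L2 and CLPP, in all 3 lines, with a counting interval that overlapped that of CLPP in empty vector cells. Over the 9 libraries, 24 of the 45 pairs of members had a correlation of log2 FPKM above 0 and 21 below 0. The highest were HSPA9 with LONP1 (r = 0.92) and CLPP with YME1L1 (r = 0.91), and the lowest was TRAP1 with YME1L1 (r = -0.88). These r values are descriptions, since the points share 3 lines, their 0 h cultures and the library scale. Of 4697 other genes of at least 10 FPKM, the 5 most like the mean centred log2 level of the 10 genes were CCT6A (r = 0.91), NOL7 (0.90), HSPBP1 (0.90), RABIF (0.88) and IMPAD1 (0.88). That mean gives each member the same weight, also HSPE1, whose levels span 4.35-fold on 20 to 106 reads, the widest range of the 10. CCT6A is a subunit of the cytosolic chaperonin and ranged from 88.0 FPKM in ETO2-GLIS2 cells at 48 h to 138 FPKM in AML1-ETO cells at 12 h.

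Among the genes that regulate the mitochondrial stress response, ATF5 rose in all lines by 48 h. It had 3.21, 13.3 and 19.5 FPKM in empty vector cells, 2.44, 6.81 and 43.7 FPKM in AML1-ETO cells, and 3.97, 5.43 and 20.4 FPKM in ETO2-GLIS2 cells, so that the log2 changes at 48 h were 2.60, 4.16 and 2.36. ATF4 and DDIT3, which were named after their values were seen, rose by 1.20, 1.85 and 1.32 and by 3.42, 2.71 and 1.59. JUN, an AP-1 factor placed upstream of DDIT3 in this response, fell in all lines, with log2 changes of -1.21, -2.21 and -0.85. UBL5, the human counterpart of a worm regulator, fell by 0.95 in ETO2-GLIS2 cells. Of the 17 regulators tested, 6 were called higher in each line at 48 h, with 1, 2 and 2 lower in empty vector, AML1-ETO and ETO2-GLIS2 cells, and the medians were 0.40, 0.16 and 0.27. Over all genes tested, 20.4%, 31.7% and 22.4% were called higher and 7.4%, 18.5% and 6.24% lower in these cells, so the count in AML1-ETO cells was near that of all genes.

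Targets of the integrated stress response moved further. Of 15 on the list, 10 passed the filter of 1 FPKM and were tested. Of these, 9, 8 and 10 were called higher and none lower at 48 h in empty vector, AML1-ETO and ETO2-GLIS2 cells. Over all genes tested, 20.4%, 31.7% and 22.4% were called higher. The medians were 1.40, 1.61 and 1.42 beside 0.16, 0.22 and 0.16 over all genes. ASNS, named after its values were seen, was not tested, at 0.14 FPKM or less in all libraries. DDIT4, an inhibitor of mTORC1 signalling, rose by 3.40 in empty vector cells, and CHAC1, a glutathione-degrading enzyme, rose by 2.89 with AML1-ETO and by 2.73 with ETO2-GLIS2. SHMT2, which supplies one-carbon units in mitochondria, was 0.48 higher in empty vector cells and rose by 0.60 in ETO2-GLIS2 cells. In AML1-ETO cells the smallest change was that of PHGDH, at 0.13. The 10 chaperones and proteases, with medians of 0.19, 0.24 and -0.18, were not near these values.

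The medians of the cochaperones and import motor genes lay between those of the 10 members and those of the integrated stress response targets. Of 6 such genes tested, 3, 3 and 2 were called higher and none lower at 48 h, with medians of 0.61, 0.55 and 0.42. Over all genes, 20.4%, 31.7% and 22.4% were called higher, and whether the counts of 6 genes differ from these shares was not tested. The mortalin partner DNAJA3, which is among the 10 members, was at 0.14, 0.14 and 0.07. GRPEL2, a nucleotide exchange factor for mortalin, had 6.61, 12.2 and 14.5 FPKM in empty vector cells, 5.36, 9.68 and 12.1 FPKM in AML1-ETO cells, and 4.33, 8.02 and 13.1 FPKM in ETO2-GLIS2 cells. It rose by 1.14, 1.17 and 1.60 at 48 h, and was past 1.5-fold in each line at 12 h too. Its paralog GRPEL1 had values of 0.14, -0.42 and -0.10 at 48 h, none past 1.5-fold, and in AML1-ETO cells at 12 h it was 0.70 higher. PAM16, a regulator of the import motor named after its values were seen, rose by 1.05, 0.70 and 1.21.

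**Figure D4:**
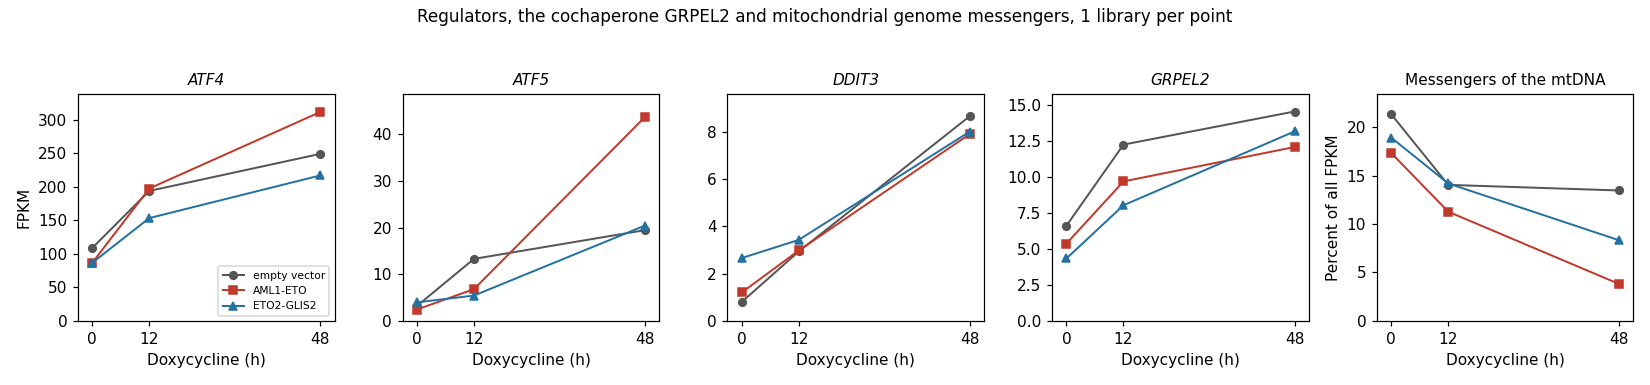
FPKM of ATF4, ATF5, DDIT3 and GRPEL2, and the share of all FPKM taken by the 13 messengers of the mitochondrial genome, against hours of doxycycline, with 1 library per point. The 4 nuclear genes are highest at 48 h in each line, and the mitochondrial share goes from 17.3% to 21.3% at 0 h down to 13.5%, 3.81% and 8.32% at 48 h in empty vector, AML1-ETO and ETO2-GLIS2 cells.

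Of 11 other mitochondrial proteases tested, 1, 2 and 1 were called higher, beside 20.4%, 31.7% and 22.4% of all genes, and 3, 3 and 2 lower, beside 7.4%, 18.5% and 6.24%, at 48 h. Their medians were -0.37, -0.05 and -0.16. METAP1D, a methionine aminopeptidase, rose by 0.63, 0.96 and 0.71. ATP23, a protease and chaperone for assembly of the ATP synthase, fell in all lines, with changes of -0.68, -2.47 and -1.26. Of 7 inner membrane scaffold genes, none was called in empty vector and ETO2-GLIS2 cells and 1 (AFG1L, named after its value was seen) was called higher in AML1-ETO cells. PHB, a prohibitin that binds the AFG3L2 protease, was at -0.31, -0.53 and -0.57, not past 1.5-fold. Of 16 preprotein translocase genes tested, 3 were called higher in empty vector cells, 2 higher and 1 lower in AML1-ETO cells and none in ETO2-GLIS2 cells at 48 h, a share below that of all genes called higher in each line. TOMM7, a small subunit of the outer membrane pore, rose by 1.12 and 0.72 in empty vector and AML1-ETO cells. TIMM21, an inner membrane subunit, had a change of -1.09 with AML1-ETO. At 12 h, 7 of the 16 were called higher in AML1-ETO cells (18.0% of all genes), 0 in empty vector cells (14.4%) and 1 in ETO2-GLIS2 cells (8.92%), and the difference between lines was not tested.

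The messengers of the mitochondrial genome itself fell beside these changes. Of the 13, 5, 13 and 13 were called lower and none higher at 48 h in empty vector, AML1-ETO and ETO2-GLIS2 cells. Beside them, 7.4%, 18.5% and 6.24% of all genes were called lower. The medians of the 13 were -0.53, -2.26 and -1.15. Because FPKM is relative to library size, less mitochondrial RNA can raise the values of other genes. In the scaling without the mitochondrial genome, each library was divided by the summed FPKM of its other genes. This is a sum of FPKM and not of reads, so mitochondrial reads were not taken out of library size itself. With it, the median change of all genes at 48 h went from 0.157 to 0.0454 in empty vector cells. The median went from 0.218 to 0.161 in AML1-ETO cells and from 0.157 to 0.159 in ETO2-GLIS2 cells. How far it would move with mitochondrial reads removed from library size was not tested. With the mitochondrial genome left out of the summed FPKM, all 60 changes of the 10 members kept their direction. Of the 10 calls, 9 were still past 1.5-fold. Fewer mitochondrial transcripts per cell and fewer mitochondria cannot be told apart in these libraries.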

How the data were processed

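RNA-seq of 9 U937 libraries was analysed. Alignment to hg38 by the authors used HISAT2 (2.0.5) and SAMtools (1.7), HTSeq (0.9.1) gave the reads on each gene, and the authors deposited FPKM for 60623 identifiers. The submitters' processing notes also name DESeq2 (1.22.2), without its role. The annotation version is not given in the sources used here. The sample labels gave the line and time of each library. The 10 genes and all lists were chosen with earlier results of these data known.

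Changes are log2 of FPKM plus a pseudocount of 0.01 against 0 h of the same line, called past 1.5-fold at a mean of at least 1 FPKM. No member's name is repeated in the files. Reads were recovered from whole multiples of what 1 read is worth (99.7% of 23889 genes gave whole reads within 0.05) and were used only for intervals (exact Clopper-Pearson, 95%). The steps were run on simulated libraries with counting noise only and with changes well past the threshold. Calls near 1.5-fold and variation between cultures were not tested by this. Python (3.11.15), numpy (2.4.6), pandas (2.3.3), scipy (1.17.1) and matplotlib (3.10.9) were used. Depth was 15136408 to 18443651 reads on genes.

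The genes named are the members, the gene of each list with the largest rise or fall at 48 h in a line (mean of at least 5 FPKM), the 5 genes most like the members' mean, genes that overlap members, and genes that check the labels. Others are marked as named after their values were seen. Promoter windows and gene positions are from RefSeq on GRCh38.p14, and exon overlaps from a GENCODE annotation on GRCh37, from which no coordinates were taken. Alternatives covered the scaling, pseudocount, fold threshold, filter and reference library. The alternatives without HSPE1 and with 12 h as the reference were chosen after seeing the data.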

Additional observations from a re-analysis of the deposited data

Results flagged for a closer look

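Members whose values went in opposite directions in 2 lines at both 12 and 48 h were listed, and the differences were not tested. HSPE1 was above its 0 h level at both times in AML1-ETO cells and below it in ETO2-GLIS2 cells, with a difference of 1.46 on the log2 scale at 48 h. It rests on few reads and the counting interval in ETO2-GLIS2 cells includes 0. CLPP was above its 0 h level in empty vector and AML1-ETO cells and below it in ETO2-GLIS2 cells, with differences at 48 h of 0.54 (empty vector minus ETO2-GLIS2) and 0.58 (AML1-ETO minus ETO2-GLIS2). CLPX, the partner of CLPP, was above its 0 h level with AML1-ETO only. The empty vector line minus the AML1-ETO line was -0.23 and the AML1-ETO line minus the ETO2-GLIS2 line was 0.53 at 48 h. Less the median of all genes, the CLPX value with AML1-ETO was below 0 as well.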

How the results depend on the processing

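With 1 library per condition, these alternatives cover processing and not variation between cultures. Of the 60 changes of members against 0 h, 51 kept their direction after median-ratio scaling, 50 less the median of all genes, and 60 without the mitochondrial genome, with either other pseudocount (0.1 or 1) and with identifiers summed. Of the 10 calls, 8 were still past 1.5-fold after median-ratio scaling and 8 less the median, where both lost calls were LONP1. Without the mitochondrial genome 9 were, with a pseudocount of 1 it was 8, where both lost calls were HSPE1, and with a pseudocount of 0.1 and with identifiers summed all 10 were. Less the change of the empty vector line, 22 of 40 changes in the fusion lines kept their direction and 18 turned, and 1 of 7 calls remained. That call was HSPE1 in AML1-ETO cells at 12 h (1.47). The empty vector value of HSPE1 at 12 h rests on 20 reads, and its change there was below the filter of 1 FPKM. Against empty vector cells at 0 h, 30 of 40 kept their direction and 6 of 7 calls remained. With 12 h as the reference, chosen after seeing the data, 25 of 30 changes at 48 h kept their direction and 4 of 9 calls remained. TRAP1 and LONP1 in ETO2-GLIS2 cells turned to 0.0389 and -0.0164 less empty vector cells.

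The median change of the 10 genes, after median-ratio scaling and less the median of all genes, was -0.14 and -0.13 in empty vector cells at 12 h, 0.0429 and 0.0371 at 48 h, -0.00539 and -0.0168 in AML1-ETO cells at 12 h, 0.0710 and 0.0213 at 48 h, -0.15 and -0.14 in ETO2-GLIS2 cells at 12 h, and -0.35 and -0.34 at 48 h. The AML1-ETO median at 12 h was 0.0573 without the mitochondrial genome, 0.0451 less empty vector cells and 0.0836 against empty vector cells at 0 h, and at 48 h it was 0.0204 less empty vector cells and 0.0760 against 12 h.

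In empty vector cells at 12 h, 1 gene was called lower after median-ratio scaling, less the median of all genes and without the mitochondrial genome, and 2 were called higher and 3 lower past a threshold of 0.32 (log2). At 48 h, 1 was called higher after median-ratio scaling, less the median, without the mitochondrial genome, with a pseudocount of 1, without HSPD1 and HSPE1, without HSPE1 alone and against 12 h. There 2 were called lower after median-ratio scaling and less the median and 0 against 12 h, with 0 and 0 past 2-fold and 4 and 2 past a threshold of 0.32 (log2). In AML1-ETO cells at 12 h, 0 were called higher with a pseudocount of 1, without HSPD1 and HSPE1, without HSPE1 alone and past 2-fold. At 48 h, 0 were called higher less empty vector cells, without HSPD1 and HSPE1, without HSPE1 alone and against 12 h, and 4 past a threshold of 0.32 (log2). Lower calls there were 0 less empty vector cells, 1 without HSPD1 and HSPE1 and 1 past 2-fold. In ETO2-GLIS2 cells at 12 h, 1 was called higher and 1 lower against empty vector cells at 0 h. At 48 h, 0 were called higher after median-ratio scaling, less the median, less empty vector cells, against 12 h and past 2-fold, and lower calls were 1 less empty vector cells, without HSPD1 and HSPE1 and against 12 h, 0 past 2-fold and 4 past a threshold of 0.32 (log2). The share of all genes called is not given here for these other thresholds, scalings and references. The counts of members under them therefore cannot be read as many or few. The causes were not tested beyond what each setting removes. Depth limits HSPE1, with 20 to 106 reads, more than the other 9 genes, which have at least 591.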

Other observations

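Chaperones of other compartments had their own patterns at 48 h. Of 14 chaperones of the endoplasmic reticulum, 2, 2 and 1 were called higher and 3, 7 and 8 lower in empty vector, AML1-ETO and ETO2-GLIS2 cells, with medians of -0.23, -0.59 and -0.69. Over all genes tested, 20.4%, 31.7% and 22.4% were called higher and 7.4%, 18.5% and 6.24% lower in these cells. PDIA4, a disulfide isomerase, fell with changes of -1.40 with the empty vector and -1.69 with AML1-ETO, SDF2L1 fell with a change of -1.71 with ETO2-GLIS2, and HERPUD1, a factor of protein degradation at that membrane, rose by 1.19, 1.21 and 0.72. Of the cytosolic heat shock genes tested (11 in empty vector cells and 12 in the others), 1 was called higher in each line and 1, 1 and 3 lower, beside the same shares of all genes. HSPB1 fell with changes of -0.65 with the empty vector and -1.11 with ETO2-GLIS2, and HSP90AA1 fell with a change of -0.81 with AML1-ETO. At 12 h, 6 of these genes were called lower in empty vector cells and none in the fusion lines. Beside them, 3.77%, 6.17% and 3.39% of all genes were called lower in empty vector, AML1-ETO and ETO2-GLIS2 cells. HSPD1 at 12 h was likewise lowest in empty vector cells, at 214 FPKM. The differences between lines were not tested.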
